A study of Mus musculus with 18 samples.

Results

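The NF-κB family and the IκB inhibitors that hold it were followed in mouse eosinophils through 10 genes. These genes were chosen by name, with earlier results of these data known. They are the 5 subunit genes *Nfkb1*, *Nfkb2*, *Rel*, *Rela* and *Relb*, the 3 genes of cytoplasmic inhibitors *Nfkbia*, *Nfkbib* and *Nfkbie*, and the 2 genes of nuclear IκB proteins *Nfkbiz* and *Bcl3*, out of 55029 genes listed for the libraries with *E. coli* and IFN-γ. The study asked how eosinophils change their RNA when they meet a bacterial stimulus, a type 1 cytokine or a type 2 cytokine. The cells were peritoneal eosinophils of *Il5* transgenic NJ.1638 mice on the C57BL/6 strain, which make an excess of eosinophils, enriched by removing cells that carry Thy1.2 or B220. They were kept for 18 h with heat-inactivated *E. coli*, with IFN-γ at 50 ng/ml, with both, with IL-4 at 100 ng/ml, or with no stimulus. The transgene is shared by all groups, so none of them holds cells from mice with normal IL-5, and the ages of the mice are not given in the sources used here.

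NF-κB acts as pairs of subunits. RELA, REL and RELB carry a domain that activates transcription, while p50 and p52, cut from the precursors made by *Nfkb1* and *Nfkb2*, bind DNA without one. In resting cells the classical IκB proteins keep the pairs in the cytoplasm, and signals from Toll-like receptors or cytokine receptors lead to their phosphorylation and breakdown, after which the freed pairs enter the nucleus and also switch on several of their own inhibitors. BCL3 and IκBζ, the product of *Nfkbiz*, instead work in the nucleus on p50 or p52. Lipopolysaccharide of *E. coli* is a known trigger of this pathway, whereas the receptors of IFN-γ and IL-4 signal chiefly by other routes.

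The 18 libraries form 2 sets. One holds unstimulated libraries a to c with 3 libraries each of *E. coli*, IFN-γ and both stimuli, at 1523808 to 2734041 counts on genes per library (median 1975355). The other holds unstimulated libraries d to f and 3 IL-4 libraries, at 3625036 to 6482289 counts. Values are CPM, counts adjusted to the same library total after scaling by trimmed mean of M values (TMM), and 3 counts came to 1.003 to 2.19 CPM in the former set and 0.497 to 0.833 CPM in the latter. The sets differ in their gene lists and in the highest count of a library, which was 4089 to 4095 in the former and 87377 to 191131 in the latter. Levels are compared between libraries of the same set only. They are not compared between genes, since CEL-Seq2, the library method named for the study, reads the 3′ ends of transcripts. A gene is called where its adjusted p was below 0.05 in the edgeR fit of its set, which tested 9883 genes in the former and 10556 in the latter. All 10 members passed the filter on low counts in both sets, with 27 to 1575 counts per library where bacteria and interferon were used and 37 to 5483 beside IL-4. The paper calls its replicates biological, but the sources used here do not say which animals or cultures gave which libraries, so the p-values measure the spread between these libraries. Because RNA was taken from whole cultures, fewer cells of a type and less RNA per cell cannot be told apart. Unstimulated libraries a to c serve as the controls of several comparisons, which are therefore not independent.

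Most members were higher after each of the type 1 stimuli, and *Nfkbiz* and *Bcl3* moved farthest of the 10. With *E. coli*, 7 of the 10 members were higher, against 13.5% of all genes tested. The count fell to 4 without unstimulated library a, and lay between 4 and 7 when each library was left out in turn. None was lower, against 16.7% of all genes, and this count of 0 in edgeR was also 0 at an unadjusted p under 0.05 and 0 in DESeq2. With IFN-γ, 7 members were higher against 15.6% of all genes, and 1, *Nfkb1*, was lower against 16.0%. That count was 0 without unstimulated library a, b or c or IFN-γ library 1 or 3. With both stimuli, 9 members were higher against 23.9% of all genes. None was lower, against 25.2%, with 0 at an unadjusted p under 0.05 in edgeR and 0 in DESeq2. The median log2 fold change of the members was 0.48 for *E. coli*, 0.57 for IFN-γ and 1.15 for both, beside medians of all tested genes of -0.02, -0.03 and -0.04. Scaling by library totals alone moved the median of all genes by -0.18 log2 with IFN-γ and by -0.25 with both stimuli. Under that scaling 4 members were called higher with IFN-γ, and *Rel*, *Relb* and *Nfkbia* were not.

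**Figure D1:**
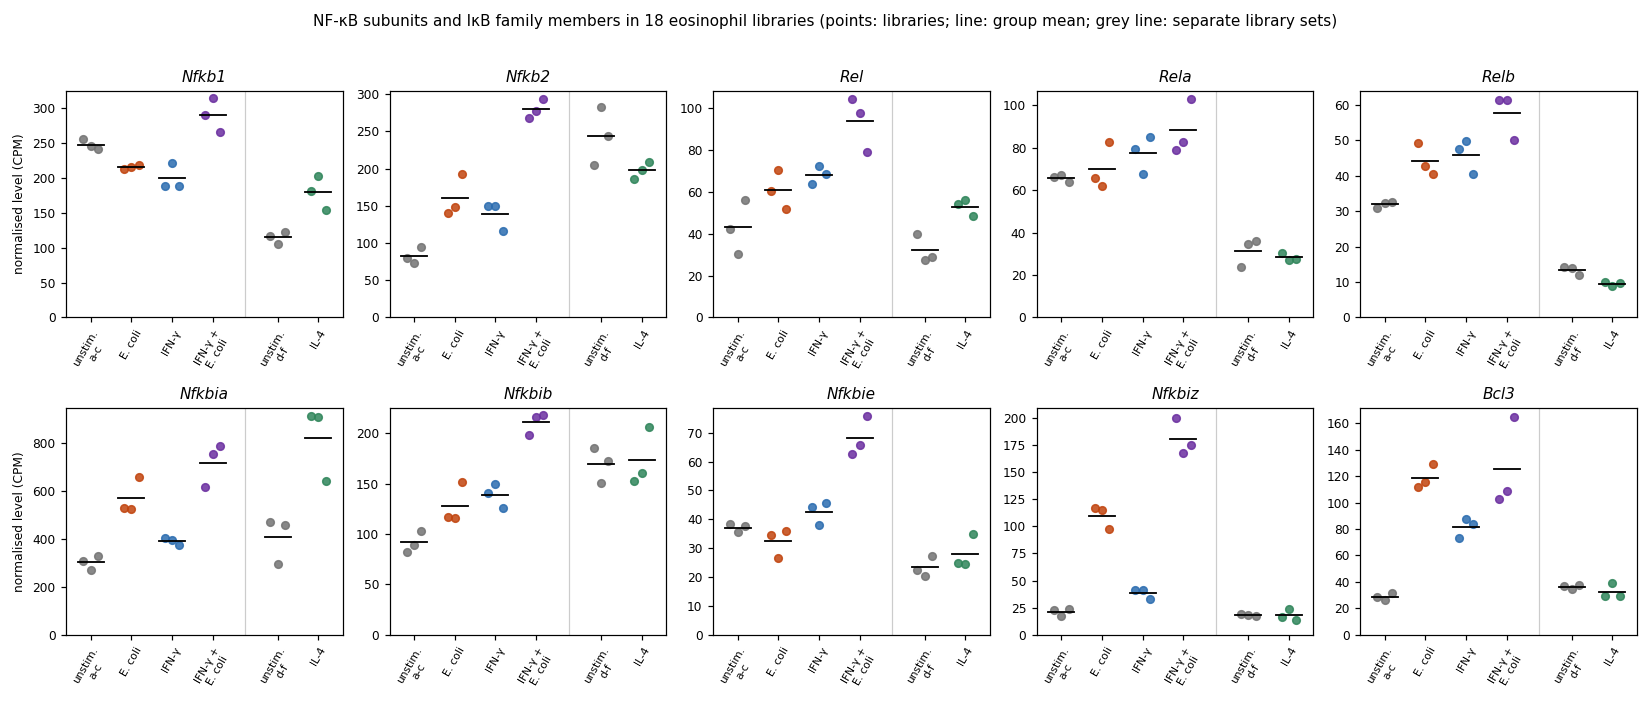
Level of each member in every library, in CPM of the TMM-scaled library total, with a panel per gene, a point per library and a line at the mean of each group of 3. *Nfkbiz* lies between 17.1 and 23.5 in unstimulated libraries a to c and between 168 and 200.1 with both stimuli, while *Rela* lies between 61.9 and 103 over its 12 libraries in that set.

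*Nfkb1* (ENSMUSG00000028163, chromosome 3, 135584655 to 135691547, minus strand of GRCm38) makes p105, the precursor of p50. Its level was 256, 246 and 241 CPM in unstimulated libraries a, b and c. It was 212, 216 and 219 CPM in the *E. coli* libraries. With IFN-γ it was 189, 222 and 188 CPM, and with both stimuli 291, 314 and 265 CPM. Each single stimulus thus gave levels below every unstimulated library, and both together gave levels above every one. The fall with IFN-γ was called, at a log2 fold change of -0.31 (SE 0.11, adjusted p = 0.0319). Leaving out each of the 6 libraries in turn gave -0.36 to -0.25 with adjusted p of 0.0340 to 0.145, and the call was kept only without IFN-γ library 2. It was also lost with no filter on low counts (-0.28, adjusted p = 0.162). The value with *E. coli* was -0.20 (SE 0.10, adjusted p = 0.158). With both stimuli it was 0.23 (SE 0.10, adjusted p = 0.0767), and this sign was lost when libraries were scaled by their totals alone (-0.02). It passed the threshold without library 3 of both stimuli (adjusted p of 0.0282 to 0.2497 over the leave-outs) and in DESeq2 (adjusted p = 0.0498).

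*Nfkb2* (ENSMUSG00000025225, chromosome 19, 46304320 to 46312385, plus strand) makes p100, which is cut to p52 and, uncut, restrains RELB. It stood at 80.5, 73.5 and 95.0 CPM in unstimulated libraries a, b and c. The *E. coli* libraries held 140 (139.9), 148 and 192 CPM, the IFN-γ libraries 149, 150 (149.7) and 116 CPM. With both stimuli it reached 267, 277 and 293 CPM, the highest of the 4 groups in every library. No stimulated library overlapped the unstimulated ones, and the libraries with both stimuli lay above all with either alone. The log2 fold change was 0.94 with *E. coli* (SE 0.14, adjusted p = 4.90e-05), 0.74 with IFN-γ (SE 0.14, adjusted p = 6.46e-04) and 1.74 with both (SE 0.14, adjusted p = 8.48e-09). Exons of *Nfkb2* share 531 and 299 bases with genes on the opposite strand, of which *Psd* had at most 1 count in this set. The strand setting of the counting is not stated, so reads of the overlapping genes cannot be told apart.

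*Rel* (ENSMUSG00000020275, chromosome 11, 23736847 to 23770970, minus strand) encodes c-Rel, which drives cytokine genes in leukocytes. Unstimulated libraries a, b and c held 42.5, 30.4 and 56.2 CPM. The *E. coli* libraries held 60.4, 70.2 and 51.8 CPM, so the groups overlapped at *E. coli* library 3. The IFN-γ libraries held 63.8, 72.3 and 68.7 CPM, and those with both stimuli 104, 97.5 and 79.1 CPM. All libraries with IFN-γ, alone or with *E. coli*, were above the unstimulated ones. The log2 fold change was 0.64 with IFN-γ (SE 0.18, adjusted p = 0.0119) and 1.09 with both (SE 0.18, adjusted p = 5.62e-05). With *E. coli* it was 0.48 (SE 0.18, adjusted p = 0.0481). That call was lost without unstimulated library a or b or *E. coli* library 1 or 2, where the leave-outs gave 0.34 to 0.72 with adjusted p of 0.00739 to 0.202, and also in DESeq2 (adjusted p = 0.0573), with library totals (0.0962), with at least 10 counts in every library (0.0702) and with only the 6 libraries compared (0.0526).

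*Rela* (ENSMUSG00000024927, chromosome 19, 5637483 to 5648130, plus strand) encodes p65, the main activating subunit of the classical pathway. Unstimulated libraries a, b and c held 66.3, 67.2 and 63.6 CPM. The *E. coli* libraries held 65.7, 61.9 and 82.5 CPM and the IFN-γ libraries 79.5, 67.7 and 85.01 CPM. With both stimuli it was 78.9, 82.7 and 103 CPM. Unstimulated and *E. coli* libraries overlapped, while those with IFN-γ, alone or with *E. coli*, lay above the unstimulated ones. Its log2 fold change was 0.43 with both (SE 0.14, adjusted p = 0.0195) and was not called with library totals (adjusted p = 0.305). The call was also lost without unstimulated library c or without library 3 of both stimuli, where leaving out each library gave 0.32 to 0.52 with adjusted p of 0.0124 to 0.0911. Neither *E. coli* (0.08, adjusted p = 0.705) nor IFN-γ (0.23, adjusted p = 0.236) gave a call.

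*Relb* (ENSMUSG00000002983, chromosome 7, 19606217 to 19629438, minus strand) encodes the partner of p52 in the alternative pathway. It was 30.9, 32.3 and 32.6 CPM in unstimulated libraries a, b and c, and 49.4, 42.8 and 40.5 CPM with *E. coli*. With IFN-γ it was 47.6, 49.7 and 40.5 CPM, and with both stimuli 61.3, 61.4 and 50.1 CPM. Every stimulated library stood above the unstimulated ones, whose spread was narrow. The log2 fold change was 0.47 with *E. coli* (SE 0.15, adjusted p = 0.0206), 0.53 with IFN-γ (SE 0.15, adjusted p = 0.0122) and 0.85 with both (SE 0.15, adjusted p = 1.20e-04). The call with *E. coli* was lost without unstimulated library a or *E. coli* library 1 (adjusted p of 0.0209 to 0.0998 over the leave-outs). That with IFN-γ was lost without unstimulated library a (0.0506, the highest of the leave-outs).

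Among the cytoplasmic inhibitors, *Nfkbia* (ENSMUSG00000021025, chromosome 12, 55489410 to 55492647, minus strand) encodes IκBα, which NF-κB itself induces and which takes the pairs back out of the nucleus. Its level was 309, 271 and 330.4 CPM in unstimulated libraries a, b and c. It was 529.9, 527 and 657 CPM with *E. coli* and 405, 396 and 373 CPM with IFN-γ. The libraries with both stimuli held 617, 753 and 786 CPM. The groups were ordered from unstimulated through IFN-γ to *E. coli* without overlap, and the libraries with both stimuli overlapped those with *E. coli* alone. The log2 fold change was 0.91 with *E. coli* (SE 0.12, adjusted p = 1.71e-05) and 1.24 with both (SE 0.12, adjusted p = 1.52e-07). With IFN-γ it was 0.36 (SE 0.12, adjusted p = 0.0319), a call lost without unstimulated library a or b or IFN-γ library 1 or 2 (0.32 to 0.43, adjusted p of 0.0292 to 0.0859 over the leave-outs) and with at least 10 counts in every library (adjusted p = 0.0573).

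*Nfkbib* (ENSMUSG00000030595, chromosome 7, 28758251 to 28767512, minus strand) encodes IκBβ, which is broken down more slowly than IκBα. It was 82.3, 89.4 and 103 CPM in unstimulated libraries a, b and c. With *E. coli* it was 117, 115 and 151 CPM, with IFN-γ 140.5, 149.7 and 126 CPM, and with both stimuli 198, 216 and 218 CPM. All stimulated libraries were above the unstimulated ones, and those with both stimuli were above all others. Its log2 fold change was 0.47 with *E. coli* (SE 0.13, adjusted p = 0.00857), 0.60 with IFN-γ (SE 0.13, adjusted p = 0.00156) and 1.203 with both (SE 0.13, adjusted p = 3.42e-07). Without unstimulated library a or *E. coli* library 3 the value with *E. coli* was not called (0.35 to 0.58, adjusted p of 0.00626 to 0.0587 over the leave-outs). Its exons share 42 bases with *Sirt2* on the opposite strand, which had up to 273 counts in this set, so part of the reads cannot be told apart.

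*Nfkbie* (ENSMUSG00000023947, chromosome 17, 45555703 to 45563169, plus strand) encodes IκBε, which binds pairs with c-Rel or RELA. Unstimulated libraries a, b and c held 38.4, 35.5 and 37.6 CPM. The *E. coli* libraries held 34.7, 26.7 and 36.0 CPM, the IFN-γ libraries 44.2, 37.9 and 45.8 CPM, and both groups overlapped the unstimulated one. With both stimuli it was 62.8, 65.7 and 75.8 CPM, apart from every other library of the set. Its log2 fold change was -0.21 with *E. coli* (SE 0.15, adjusted p = 0.333), 0.19 with IFN-γ (SE 0.16, adjusted p = 0.385) and 0.87 with both (SE 0.15, adjusted p = 9.81e-05).

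Of the nuclear members, *Nfkbiz* (ENSMUSG00000035356, chromosome 16, 55811375 to 55838899, minus strand) encodes IκBζ, which is needed for a second wave of Toll-like receptor target genes. It was 22.7, 17.1 and 23.5 CPM in unstimulated libraries a, b and c, and 117, 115 and 97.8 CPM with *E. coli*. With IFN-γ it was 41.4, 41.5 and 33.4 CPM, and with both stimuli 200.1, 168 and 175 CPM. The 4 groups did not overlap in any pair. *Nfkbiz* had the largest log2 fold change of the 10 members with *E. coli*, 2.35 (SE 0.15, adjusted p = 1.17e-09), a fold of 5.11. It was 0.85 with IFN-γ (SE 0.17, adjusted p = 6.94e-04) and 3.07 with both (SE 0.15, adjusted p = 7.56e-12), a fold of 8.38.

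*Bcl3* (ENSMUSG00000053175, chromosome 7, 19808462 to 19822770, minus strand) encodes a partner of p50 and p52 homodimers. Unstimulated libraries a, b and c held 28.3, 26.6 and 31.8 CPM. The *E. coli* libraries held 112, 116 and 129 CPM, the IFN-γ libraries 73.3, 87.7 and 83.7 CPM, and those with both stimuli 103, 109 and 165 CPM. Every stimulated library was above the unstimulated ones. With both stimuli, libraries 1 and 2 lay below all those with *E. coli* alone and library 3 above them. *Bcl3* had the largest log2 fold change of the 10 members with IFN-γ, 1.49 (SE 0.18, adjusted p = 3.06e-06). With both stimuli it was 2.11 (SE 0.17, adjusted p = 1.01e-08), close to its 2.03 with *E. coli* alone. Its exons share 161 bases with *Gm16175* on the opposite strand, which had 0 counts in all libraries.

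**Figure D2:**
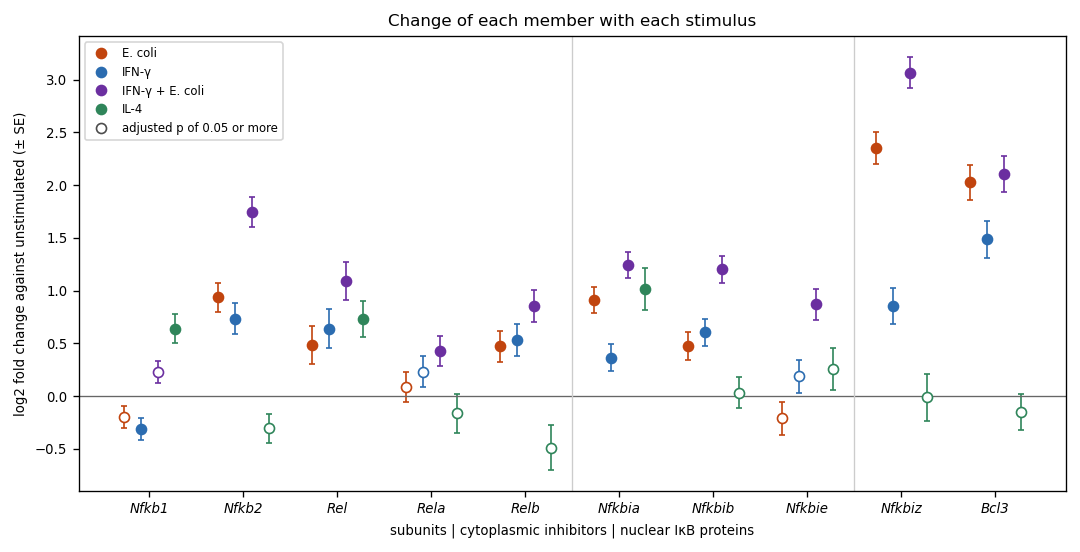
Log2 fold change of each member against the unstimulated libraries of its set for *E. coli*, IFN-γ, both and IL-4, with bars of 1 standard error and open points where the adjusted p was 0.05 or more. The 2 nuclear members reach 2.35 and 2.03 with *E. coli*, while the 5 subunits lie between -0.20 and 0.94.

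Adding *E. coli* to IFN-γ raised 7 of the 10 members over IFN-γ alone, against 12.2% of all genes called in either direction. The step was 2.21 for *Nfkbiz* (SE 0.14, adjusted p = 2.92e-09), 1.01 for *Nfkb2* (SE 0.14, adjusted p = 5.58e-05) and 0.88 for *Nfkbia* (SE 0.12, adjusted p = 9.22e-05). *Nfkbie* (0.68), *Bcl3* (0.62), *Nfkbib* (0.60) and *Nfkb1* (0.54) were the other called members. The call of *Bcl3* was lost without IFN-γ library 1 or library 3 of both stimuli, with 0.37 to 0.74 over the leave-outs and adjusted p up to 0.0833. *Rel* (0.46, adjusted p = 0.102), *Relb* (0.32, adjusted p = 0.175) and *Rela* (0.19, adjusted p = 0.453) were not called. A model with a replicate block called *Rel* here (0.45, adjusted p = 0.0376).

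Adding IFN-γ to *E. coli* raised 8 members over *E. coli* alone, against 32.8% of all genes called in either direction. Scaling by library totals, which moved the median of all genes by -0.23 here, gave 4 calls, without *Nfkb1*, *Rel*, *Relb* and *Nfkbia*. *Nfkbie* moved most, by 1.08 (SE 0.15, adjusted p = 1.74e-05), followed by *Nfkb2* at 0.81, *Nfkbib* at 0.73 and *Nfkbiz* at 0.71. *Rel* was higher by 0.61, *Nfkb1* by 0.43, *Relb* by 0.38 and *Nfkbia* by 0.33. The last pair was near the threshold, with adjusted p of 0.0483 and 0.0419. The call of *Relb* was lost without *E. coli* library 2 or 3 or library 1 or 2 of both stimuli (0.32 to 0.46, adjusted p up to 0.163) and in DESeq2 (adjusted p = 0.0954, with 7 members called), and that of *Nfkbia* without *E. coli* library 1 or 2 or library 2 or 3 of both stimuli (0.26 to 0.44, adjusted p up to 0.166). Both were also lost with no filter on low counts, with at least 10 counts in every library and with only the 6 libraries compared, which left 6 members in each case. *Rela* (0.34, adjusted p = 0.0721) passed the threshold without *E. coli* library 3 (adjusted p of 0.0235 to 0.303 over the leave-outs). A model with a replicate block also called *Rela* (0.33, adjusted p = 0.0475). *Bcl3* differed by 0.08 (SE 0.15, adjusted p = 0.722), and its sign turned with library totals (-0.15) and without library 3 of both stimuli (-0.17). The mitochondrial share of counts was 1.57% to 1.86% with *E. coli*, 2.01% to 2.31% with IFN-γ and 2.06% to 2.39% with both. It was 1.73% to 2.34% in unstimulated libraries a to c, and its part in the changes of the members was not tested.

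Set directly against each other, IFN-γ and *E. coli* differed in 3 members, against 25.5% of all genes called in either direction. All 3 were lower under IFN-γ. The log2 difference was -1.499 for *Nfkbiz* (SE 0.14, adjusted p = 1.39e-07), and *Nfkbia* gave -0.54 (SE 0.12, adjusted p = 0.00250) and *Bcl3* -0.54 (SE 0.15, adjusted p = 0.0128). The call of *Bcl3* was lost without IFN-γ library 1, where leave-outs gave -0.59 to -0.47 with adjusted p up to 0.0665. The 5 subunits lay between -0.20 and 0.16 and were not called. Library totals moved the median of all genes by -0.15 and turned the sign of *Rela*, *Relb* and *Nfkbib*, which were not called either way.

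The interaction term asks whether the change with both stimuli departs from the sum of the log2 changes with each alone. It was called for 3 members, against 4.62% of all genes. For *Nfkb1* the single effects summed to -0.51 and both stimuli gave 0.23, a departure of 0.74 (SE 0.15, adjusted p = 0.00668). For *Nfkbie* the sum was -0.02 and both gave 0.87, a departure of 0.89 (SE 0.22, adjusted p = 0.0217). *Bcl3* went the other way, with a sum of 3.51, a joint change of 2.11 and a departure of -1.41 (SE 0.23, adjusted p = 0.00136). So *Nfkb1* and *Nfkbie* were higher with both stimuli than the sum, and *Bcl3* was lower than the sum. The departure of *Nfkbie* was not called without unstimulated library a, *E. coli* library 2 or IFN-γ library 2, where the 12 leave-outs gave 0.75 to 0.96 with adjusted p of 0.0173 to 0.0893. The other 7 members lay between -0.15 and 0.13. *Nfkbiz* (sum 3.21, both 3.07) and *Nfkb2* (sum 1.67, both 1.74) departed from their sums by -0.14 and 0.07, less than their standard errors of 0.21 and 0.20.

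**Figure D3:**
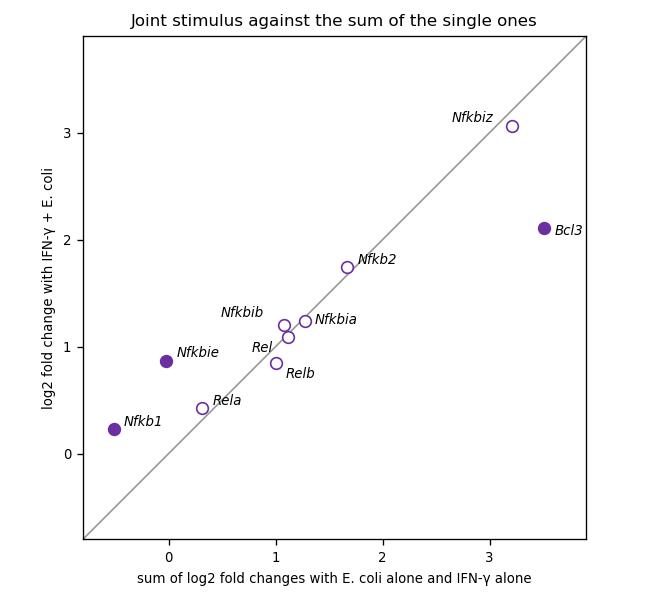
Log2 fold change with both stimuli plotted against the sum of the log2 fold changes with *E. coli* and with IFN-γ alone, a point per member, with the line where both are equal and filled points where the interaction was called. *Nfkb1* (-0.51, 0.23) and *Nfkbie* (-0.02, 0.87) lie above the line and *Bcl3* (3.51, 2.11) lies below it.

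With IL-4, 3 of the 10 members were higher, against 5.97% of all genes. *Nfkbia* was 469, 294 and 457 CPM in unstimulated libraries d, e and f and 915, 911 and 640.0 CPM with IL-4. *Nfkb1* was 117, 105 and 122.9 CPM in the former and 182, 202 and 153 CPM in the latter. *Rel* was 39.7, 27.7 and 28.9 CPM in the former and 54.0, 56.2 and 48.2 CPM in the latter. In these 3 genes no IL-4 library overlapped an unstimulated one. The log2 fold change was 1.02 for *Nfkbia* (SE 0.20, adjusted p = 0.00911), 0.73 for *Rel* (SE 0.17, adjusted p = 0.0247) and 0.64 for *Nfkb1* (SE 0.14, adjusted p = 0.0151). All 3 calls were lost without IL-4 library 1 or 2, and that of *Rel* also without unstimulated library f or IL-4 library 3. The leave-outs gave 0.83 to 1.15 for *Nfkbia* with adjusted p up to 0.0591, 0.64 to 0.90 for *Rel* with adjusted p up to 0.122, and 0.54 to 0.73 for *Nfkb1* with adjusted p up to 0.0979. Unstimulated library e stood apart from its replicates over all genes, at a chi-square per gene of 23.7 and 22.0 beside 7.86 between libraries d and f, and the calls of *Nfkbia*, *Rel* and *Nfkb1* were kept without it.

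No member was called lower with IL-4, against 4.35% of all genes. In edgeR 2 members were lower at an unadjusted p under 0.05, and DESeq2 gave 0 adjusted and 1 unadjusted. The pair was *Relb* and *Nfkb2*. *Relb* was 14.2, 13.9 and 11.9 CPM in unstimulated libraries d, e and f and 9.89, 8.97 and 9.59 CPM with IL-4, without overlap, at a log2 fold change of -0.49 (SE 0.21, adjusted p = 0.186). *Nfkb2* was 205, 283 and 244 CPM and then 186, 199 and 208 CPM, overlapping at 1 library, at -0.31 (SE 0.14, adjusted p = 0.197). The other members had groups that overlapped. *Nfkbie* was 20.2 to 27.4 CPM unstimulated and 24.4 to 34.7 CPM with IL-4 (log2 fold change 0.25), and *Nfkbib* 151 to 185 and 152 to 207 CPM (0.03). *Bcl3* was 34.5 to 37.8 CPM and then 29.1 to 39.2 CPM (-0.15), and *Rela* 23.9 to 35.9 and then 26.9 to 30.4 CPM (-0.16). *Nfkbiz*, so high after *E. coli*, was 16.8 to 19.4 CPM and then 13.998 to 23.3 CPM (-0.01), and its sign turned with library totals (0.05). The median of the members was 0.01, beside 0.00 over all genes. Whether the IL-4 response of a member differs from its response to the other stimuli was not tested.

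The members did not all follow 1 pattern across the bacterial and interferon stimuli. Over the 12 libraries, which share the 4 groups, Pearson's r of log2 CPM was 0.97 between *Nfkb2* and *Nfkbib* and 0.96 between *Nfkbia* and *Nfkbiz*. *Nfkb1* stood farthest from the rest, from -0.02 with *Bcl3* to 0.59 with *Nfkbie*. Genes outside the family with the most similar pattern, given as a description, were *Irak3* (0.99) and *Cldnd1* (0.98) for *Nfkbiz*, and *Ier3* (0.99), *Il1b* (0.99) and *Il1a* (0.98) for *Nfkbia*. *Il1b* was also close to *Nfkbiz* (0.98). *Bcl3* was closest to *Lrrc8d* (0.98), *Gm42462* (0.98) and *Irak2* (0.97), and *Nfkb2* to *Tubb6* (0.98), *Fosl1* (0.98) and *Ptgs2* (0.97). *Rel* was closest to *Aff4*, *Lmnb1* and *Samd8* (0.96 each), *Relb* to *Erf* (0.98), *Arcn1* (0.95) and *Hrh1* (0.95), and *Nfkbib* to *Psat1* (0.98), *Fam129b* (0.98) and *Plbd1* (0.97). The nearest to *Nfkbie* were *Impact* (0.96), *Tspan3* (0.95) and *Rapgef2* (0.95), to *Rela* *Tmem33* (0.93), *Prep* (0.91) and *Slc23a2* (0.91), and to *Nfkb1* *Hyal1* (0.92), *Rab10os* (0.90) and *2310043P16Rik* (0.89).

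Genes that carry signals to NF-κB, with the further nuclear IκB gene *Nfkbid*, formed a list of which 26 were tested. With *E. coli* the 3 genes *Chuk*, *Traf1* and *Nfkbid* were higher, against 13.5% of all genes, and *Rbck1* was lower, against 16.7%. With IFN-γ 10 were higher, against 15.6%, and with both 19, against 23.9%. Their median log2 fold changes were 0.14, 0.36 and 0.48, and no test against the members was run. Scaling by library totals gave 4 higher with IFN-γ, and 9 higher and 1 lower with both. The count of 0 lower with both was also 1 with at least 10 counts in every library and without unstimulated library a. *Chuk*, the kinase IKKα, gave 0.52 with *E. coli* (adjusted p = 0.0180) and was named after its values were seen. That call was lost without unstimulated library a or *E. coli* library 1 or 2 (adjusted p up to 0.0886). *Nfkbid* rose by 0.90 after *E. coli*, by 1.09 after IFN-γ and by 1.57 after both (adjusted p = 2.27e-09). It thus moved less than the subunit gene *Nfkb2* after *E. coli* (0.94) and after both (1.74). Its rise after IFN-γ was larger than that of *Nfkbiz* (0.85). *Ikbkg*, the regulatory subunit NEMO of the IκB kinase, rose by 0.85 with IFN-γ and 0.97 with both, and was the 1 gene of 27 called with IL-4, against 4.35% of all genes called lower, at -1.09 (adjusted p = 0.00883), a call lost without IL-4 library 3 (adjusted p up to 0.0534 over the leave-outs). *Traf1*, an adaptor of TNF receptors, gave 1.58 with both stimuli and 0.98 with *E. coli*. The latter call was lost without unstimulated library a, b or c or *E. coli* library 3 (0.63 to 1.16, adjusted p of 0.0178 to 0.139 over the leave-outs). *Malt1*, the protease of the CARD9 and BCL10 complex, gave 1.57 with both stimuli. *Tab2*, an adaptor of the kinase TAK1, gave 0.31 with both, a call lost without unstimulated library a or library 1 of both stimuli (adjusted p up to 0.104) with library totals (adjusted p = 0.668), with no filter, with at least 10 counts in every library and with only the 6 libraries compared. The count of 3 with *E. coli* fell to 1 without unstimulated library a, and *Rbck1*, of the linear ubiquitin ligase, at -0.44 with *E. coli*, was not called without unstimulated library b or *E. coli* library 2 (adjusted p up to 0.0668).

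Enzymes and adaptors that shut the pathway down gave 5 higher of 15 with *E. coli*, against 13.5% of all genes. With IFN-γ 3 were higher and 1 lower, against 15.6% and 16.0%, and with both 8 were higher and 1 lower, against 23.9% and 25.2%. The medians were 0.06, 0.28 and 0.51. *Tnfaip3*, the ubiquitin-editing enzyme A20, rose under all stimuli, by 1.15 with *E. coli*, 1.2 with IFN-γ, 2.31 with both (adjusted p = 1.10e-10) and 0.58 with IL-4. With IL-4 it was the 1 gene of 15 called (adjusted p = 0.0415), against 5.97% of all genes called higher, and the call was lost in DESeq2, with no filter and without unstimulated library d or f or IL-4 library 1, 2 or 3 (adjusted p up to 0.137 over the leave-outs). *Zc3h12a*, a ribonuclease that degrades inflammatory transcripts, rose by 1.56 with *E. coli* and 1.65 with both. *Rnf11*, a partner of A20, rose by 0.81, 0.41 and 0.82, where the value with IFN-γ was not called without unstimulated library a or IFN-γ library 3 (adjusted p up to 0.0638) or with library totals (0.126). *Tnip3*, an A20-binding protein, rose by 1.28 with both. *Tnip1* (1.07) and *Tnip2* (0.96) with *E. coli* and *Cyld* (0.53) with IFN-γ were the other genes called higher with a single stimulus and were named after their values were seen. *Tnip2* lost its call without *E. coli* library 3 (adjusted p = 0.0502) and *Cyld* with library totals (0.0776). *Tax1bp1*, another A20 adaptor, rose by 0.51 with both, a call lost with library totals (adjusted p = 0.0619). *Commd1*, which promotes the breakdown of RELA, was the 1 lower gene, at -0.85 with IFN-γ and -0.50 with both. The latter call was lost without unstimulated library b or library 1 of both stimuli (adjusted p up to 0.131), in DESeq2 and with no filter, while 2 genes were lower without library 2 of both stimuli. Library totals gave 1 higher and 2 lower with IFN-γ and 3 lower with both, and requiring at least 10 counts in every library gave 1, 2 and 3 lower for *E. coli*, for IFN-γ and for both. A correction of the counts for identifiers shared by chance, chosen after seeing the data, gave 2 lower with IFN-γ. With IL-4, 2 genes were higher without unstimulated library e or with library totals.

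Of the textbook target genes of NF-κB in myeloid cells 29 were tested. With *E. coli* 18 were higher and 1 lower, against 13.5% and 16.7% of all genes, with IFN-γ 19 higher and 4 lower, against 15.6% and 16.0%, and with both 26 higher and 3 lower, against 23.9% and 25.2%. The medians were 1.02, 0.84 and 2.01, and no test against the members was run. *Ptgs2*, which encodes cyclooxygenase-2, went from 31.6 ± 8.62 CPM to 1049 ± 126 with both (SD, n = 3), a log2 fold change of 5.01 (adjusted p = 1.04e-12). *Tnf* gave 2.51 with *E. coli* and 2.44 with both, and 0.56 with IFN-γ (adjusted p = 0.0815). *Lcn2*, an iron-binding antibacterial protein, rose by 1.64 with *E. coli* and fell by 1.30 with IFN-γ. *Il12b*, a chain of IL-12, averaged 0.275 ± 0.477 CPM in unstimulated cells, under the 1.003 to 2.19 CPM that 3 counts make here, and 18.2 ± 6.32 with both. *Irf1* was the lower gene with *E. coli* (-0.76), and the paralogs *Bcl2a1a*, *Bcl2a1b* and *Bcl2a1d*, whose near-identical copies make their counts uncertain, were lower with IFN-γ and with both. *Irf1* and these paralogs were named after their values were seen, and *Bcl2a1d* with both was not called without unstimulated library b or library 1 of both stimuli (adjusted p up to 0.0855).

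In the same list the interaction was called for 5 genes, against 4.62% of all genes, higher for *Cxcl1* (1.48), *Gadd45b* (1.19) and *Irf1* (0.71) and lower for *Cxcl3* (-2.10) and *Ccl3* (-0.74). *Cxcl1* and *Gadd45b* were named after their values were seen. The call of *Gadd45b* was lost in 8 of the 12 leave-outs (0.99 to 1.31, adjusted p up to 0.118) and in DESeq2, and that of *Cxcl1* in 3 (1.23 to 1.82, adjusted p up to 0.0843). The count of 5 was 3 to 8 over the leave-outs and 8 with no filter. The chemokine genes *Cxcl3* and *Ccl3* had up to 3871 and 2644 counts in a library, where no gene exceeded 4095 in any library of the set. Correcting the counts for shared identifiers moved the joint log2 fold change of *Cxcl3* from 4.19 to 5.51 and that of *Ccl3* from 4.91 to 5.52, and their interactions to -1.96 and -0.45, the latter not called (adjusted p = 0.157). With IL-4, 9 targets of 27 were higher and 5 lower, against 5.97% and 4.35% of all genes, with a median of 0.01. The lower ones were *Lcn2* (-2.42, adjusted p = 2.63e-05), *Cxcl3* (-1.46), *Tnf* (-1.12), *Ccl3* (-0.89) and *Sod2* (-0.49), the last named after its values were seen. The count of 5 was 3 without unstimulated library d or IL-4 library 1 and 2 without IL-4 library 2 or 3, and 2 with library totals. *Tnf* lost its call in each of these leave-outs (adjusted p up to 0.161), and *Ccl3* in those of unstimulated library d and IL-4 libraries 2 and 3 (adjusted p up to 0.153), and both lost it with library totals. *Sod2* was not called without unstimulated library f or IL-4 library 1, 2 or 3 (-0.58 to -0.40, adjusted p up to 0.163) or with library totals (0.0578). *Lcn2* and *Cxcl3* kept their calls in all of these. *Ptgs2* was higher by 1.04 with IL-4.

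The 10 eosinophil markers summed to 3842 to 5139 CPM in unstimulated libraries a to c, 3117 to 3533 with *E. coli*, 3605 to 4446 with IFN-γ and 2893 to 3275 with both. In unstimulated libraries a to c *Alox15* averaged 1620, *Ccr3* 1431, *Siglecf* 1020 and *Prg2* 29.5 CPM. With IL-4 the sum was 5031 to 5235 CPM, beside 5173 to 6002 CPM in libraries d to f. Of 6 tested in the former, 1 was higher and 2 lower with *E. coli*, 4 were lower with IFN-γ, and 1 was higher and 4 lower with both. With IL-4, 4 of 10 were higher and 1 lower. Of all genes tested, 13.5% were higher and 16.7% lower with *E. coli*, and 15.6% and 16.0% with IFN-γ. With both stimuli these shares were 23.9% and 25.2%, and with IL-4 5.97% and 4.35%. The interaction was called for 4.62% of all genes. Macrophage markers, 9 genes with *Csf1r* and *C1qc* among them, summed to 973 to 1100 CPM in unstimulated libraries a to c, 627 to 1006 with *E. coli*, 1471 to 1559 with IFN-γ and 1305 to 1670 with both. Of 8 tested, 3 were lower with *E. coli*, 4 higher and 1 lower with IFN-γ, 3 higher and 1 lower with both, and 3 lower with IL-4, where the sum went from 2179 to 2784 CPM down to 1777 to 2054. The interaction was higher for *Marco* (2.01) and *Timd4* (1.62), named after their values were seen. No marker of any list was at 0 in every library.

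Markers of other cells were also measured and several moved with the groups. The shares of all genes given with the eosinophil markers apply to these counts too. Neutrophil markers summed to 12.7 to 19.8 CPM in unstimulated libraries a to c and to 46.1 to 129 in the stimulated libraries of that set, with 1 of 2 tested higher in the *E. coli* group and 2 of 2 in each group that received IFN-γ. Of these 8 genes, 4 passed 3 counts in some library. *S100a8* was the most abundant, at 6.33 to 122 CPM over the set, so the highest sum of 129 CPM was mostly this gene. The interaction was lower for *S100a8* (-2.55), named after its values were seen, a call lost without unstimulated library a (adjusted p = 0.0585). In the IL-4 set they summed to 14.6 to 24.9 CPM and the 3 tested were not called. B cell markers summed to 117 to 217 CPM in unstimulated libraries a to c, 40.8 to 76.5 with *E. coli*, 58.2 to 100.2 with IFN-γ and 121 to 134 with both. All 5 tested were lower with *E. coli*, 4 were lower with IFN-γ, and the interaction was higher in all 5, from 2.32 to 2.98. B cell markers in the IL-4 set summed to 23.7 to 43.4 CPM in libraries d to f and 58.7 to 71.8 with IL-4, where 3 of 4 were higher. Mast cell markers summed to 7.43 to 10.1 CPM in unstimulated libraries a to c, 6.69 to 34.6 with *E. coli*, 13.1 to 30.2 with IFN-γ and 35.8 to 70.7 with both stimuli. With both, 2 of 2 were higher, 1 of them also with IFN-γ, and neither was called with *E. coli* or with IL-4. Their sum was 6.79 to 8.33 CPM in libraries d to f and 8.14 to 20.7 with IL-4. T cell markers summed to 3.68 to 9.32 and 1.81 to 5.55 CPM in the sets, and the 1 gene tested, *Cd3d*, was not called. Dendritic cell markers summed to 3.17 to 8.77 CPM in the set with bacteria and interferon. They summed to 4.14 to 7.36 CPM in libraries d to f and 7.42 to 17.4 with IL-4. Of those tested *Xcr1* was higher with IL-4, a call lost in each of the 6 leave-outs. *E. coli* library 3 held 129 CPM of neutrophil, 1006 of macrophage and 34.6 of mast cell markers, beside up to 61.6, 693 and 9.79 in libraries 1 and 2. Over all genes its chi-square per gene against them was 3.76 and 4.601, beside 1.64 between them. It had the highest level of its group in *Nfkb1*, *Nfkb2*, *Rela*, *Nfkbia*, *Nfkbib*, *Nfkbie* and *Bcl3*, and the lowest in *Rel*, *Relb* and *Nfkbiz*. The share of all genes highest in that library was not counted. Library 3 of both stimuli (6.04 and 5.02, beside 2.66) and unstimulated library b (4.58 and 4.503, beside 2.49) also stood apart from their replicates. The part of these cells in the changes of the members was not tested.

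Since most members rose together with both stimuli, the RefSeq windows from 250 bases before to 50 after their starts (GRCm38.p6) were searched on both strands. Windows were given for 7 of the 10, and *Nfkb1*, *Relb* and *Nfkbiz* had none. The κB consensus was found for 5 of the 7, namely *Nfkb2*, *Rel*, *Nfkbia*, *Nfkbie* and *Bcl3*, and it occurs in the windows of 9.55% of 27025 genes. The STAT6 site was found for 0 of the 7 and occurs in those of 8.01% of genes. The windows of *Rela* and *Nfkbib* held no κB match, and these genes were also called higher with both stimuli. The sequences before the starts of *Nfkbia*, *Nfkbie* and *Rel*, all with a κB match, are shown as examples. These genes range from a rise with every stimulus to a rise with both only, and no link of the match to the response was tested. All the printed sequences are in the same form. Each runs 5′ to 3′ along the gene's strand with the matched letters in capitals. The match begins 29 bases before the start in *Nfkbia* (chr12:55492648-55492897, minus strand) and 106 bases before it in *Nfkbie* (chr17:45555450-45555699, plus strand). In *Rel* (chr11:23770971-23771219, minus strand) there are 2 matches that overlap, beginning 92 and 91 bases before the start, and the printed part ends 2 bases before it. A match describes these letters and no binding was measured.
*Nfkbia*: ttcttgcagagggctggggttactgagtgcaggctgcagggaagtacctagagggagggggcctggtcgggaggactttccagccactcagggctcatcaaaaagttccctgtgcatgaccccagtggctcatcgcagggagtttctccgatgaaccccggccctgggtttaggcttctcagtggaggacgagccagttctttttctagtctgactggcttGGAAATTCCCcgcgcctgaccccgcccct
*Nfkbie*: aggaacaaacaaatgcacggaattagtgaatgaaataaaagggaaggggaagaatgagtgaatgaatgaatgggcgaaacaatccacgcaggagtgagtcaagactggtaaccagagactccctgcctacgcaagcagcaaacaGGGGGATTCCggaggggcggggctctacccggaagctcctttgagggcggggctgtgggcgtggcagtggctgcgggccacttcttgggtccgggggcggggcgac
*Rel*: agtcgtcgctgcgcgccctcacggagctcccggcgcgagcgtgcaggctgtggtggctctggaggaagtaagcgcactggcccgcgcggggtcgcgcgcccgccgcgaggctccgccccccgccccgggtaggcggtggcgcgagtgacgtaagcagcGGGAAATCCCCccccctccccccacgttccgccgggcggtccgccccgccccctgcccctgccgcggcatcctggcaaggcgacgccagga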

How the data were processed

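RNA of mouse eosinophils was measured in 18 libraries. The authors deposited raw counts per Ensembl gene, made per the paper's methods from CEL-Seq2 libraries on GRCm38. The methods and the submitters' notes name TopHat2 2.1.0 with HTSeq 0.6.1 and also fastp 0.20.1 with STAR 2.7.2a, without saying which made which files, and the collapse of molecular identifiers and the strand setting of the counting are not given in the sources used here. In the libraries with *E. coli* or IFN-γ and their controls, no_feature held 18.9% to 37.6% and ambiguous 1.84% to 2.27% of all counts, and both were left out of library totals.

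Counts were analysed in R 4.3.3. Genes kept by filterByExpr were scaled by TMM and tested by the quasi-likelihood test of edgeR 4.0.16 with Benjamini-Hochberg adjustment over all genes tested, in 1 model per set. DESeq2 1.42.0 was an alternative. The code was first tested on simulated counts. Standard errors derive from the fold change and F statistic. Log2 CPM used a prior count of 2, and 3 counts were taken as the floor. Positions are from GENCODE M21 on GRCm38, which held 98.4% and 99.9% of the gene identifiers of the sets.

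The members, the 3 pathway lists, the 7 marker lists and the tests were chosen with earlier results of these data known. All members are named, and from each pathway list the 3 called genes with the largest and the 3 with the smallest log2 fold change in any comparison with unstimulated cells. For each member the 3 genes with the highest Pearson r are named. The result of 1 planned motif search is not reported here.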

Additional observations from a re-analysis of the deposited data

Results flagged for a closer look

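The interaction of IFN-γ and *E. coli* was called for 3 members, so that the effect of 1 stimulus differed with the other present. The departure of the joint change from the sum of the single changes was 0.739 on the log2 scale for *Nfkb1* (adjusted p = 0.00668) and 0.891 for *Nfkbie* (adjusted p = 0.0217), and for *Bcl3* it was -1.406 (adjusted p = 0.00136), each by the edgeR test over all genes. Over the 12 leave-outs the departure lay between 0.66 and 0.79 for *Nfkb1* and between -1.68 and -1.31 for *Bcl3*, called in each, with adjusted p up to 0.0287 and 0.00809. That of *Nfkbie* lay between 0.75 and 0.96 and was not called in 3 of the 12, with adjusted p up to 0.0893. Markers of other cells also had an interaction, against 4.62% of all genes called in either direction. It was higher in 5 of 5 B cell genes and 2 of 8 macrophage genes tested and lower in 1 of 2 neutrophil genes. The part of these cells in the values of the members was not tested.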

How the results depend on the processing

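Over 80 values of members, 1180 recomputed values kept their sign and side of the threshold in 1053 cases, lost the call in 97, gained it in 5 and changed sign in 25. Counts of members stayed within 1.5 times in 153 of 172 cases. Every value that changed sign was one that had not been called.

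Requiring a change by a factor of 2 left 2 members higher with *E. coli*, 1 higher and 0 lower with IFN-γ, 2 called for both stimuli against IFN-γ, 1 for both against *E. coli*, 1 for IFN-γ against *E. coli*, 1 for the interaction and 1 higher with IL-4. A stricter threshold lowers such counts by construction. Without a filter on low counts, 0 members were lower with IFN-γ. With library totals in place of TMM, 4 members were higher with IFN-γ and 4 were called for both stimuli against *E. coli*. The same scaling gave -0.0223 for *Nfkb1* with both stimuli, -0.153 for *Bcl3* in both against *E. coli*, and 0.0522 for *Nfkbiz* with IL-4. In IFN-γ against *E. coli* it gave -0.0036 for *Rela*, -0.0936 for *Relb* and -0.0204 for *Nfkbib*. With at least 10 counts in every library *Nfkbiz* gave 0.0083 with IL-4. The cause was not tested.

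When each library was left out in turn, members called higher were 4 to 7 with *E. coli*, 5 to 7 with IFN-γ, 8 to 9 with both and 0 to 3 with IL-4. The count lower with IFN-γ was 0 to 1. It was 6 to 7 for both against IFN-γ, 6 to 8 for both against *E. coli*, 2 to 3 for IFN-γ against *E. coli* and 2 to 3 for the interaction. The sign turned in the interaction of *Nfkb2* (-0.0546 to 0.2076), *Rel* (-0.2682 to 0.1114), *Rela* (-0.0453 to 0.225) and *Nfkbia* (-0.13 to 0.0702), for *Rela* with *E. coli* (-0.0347 to 0.1784), for *Nfkbib* (-0.1271 to 0.1245) and *Nfkbiz* (-0.2729 to 0.1102) with IL-4, and for *Bcl3* in both against *E. coli* (-0.166 to 0.2044).

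A replicate block called 8 members for both against IFN-γ, 9 for both against *E. coli* and 3 for IFN-γ against *E. coli*, adding *Rel* (adjusted p = 0.0376) and *Rela* (adjusted p = 0.0475). Same-numbered libraries deviated together at correlations of -0.045 to 0.331, and 4 of 9 libraries correlated best with their own number. With 3 libraries per group these values cannot settle whether same numbers mean a shared animal or culture. The sources used here do not say, so the main fit did not treat the libraries as paired.

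A correction of the counts for identifiers shared by chance, over 4096 possible identifiers, was chosen after seeing the data, because the highest count was 4089 to 4095 in each of the 12 libraries with *E. coli*, IFN-γ or their controls. Of the calls of members it changed 1, that of *Nfkbia* in both against *E. coli* (0.30, adjusted p = 0.0843). Members had at most 1575 counts there. The biological coefficient of variation was 0.118 in that set and 0.182 in the IL-4 set, and the power of the tests was not measured.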
